A study of Homo sapiens with 7 samples.

Results

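The kinase complex that releases NF-κB, the ligase that builds linear ubiquitin chains for it, and the deubiquitinases and adaptors that act as brakes on both were followed at the mRNA level in RH30 cells treated with BV6. The members were CHUK, IKBKB, IKBKG, RNF31, RBCK1, SHARPIN, TNFAIP3, TNIP1, CYLD and OTULIN, chosen by symbol for their known roles, and all 10 were found among the 57189 genes counted. RH30, a long-established human line, derives from alveolar rhabdomyosarcoma (RMS), and BV6 is a Smac mimetic, a small molecule that binds inhibitor of apoptosis proteins (IAPs). RNAseq counts came from 4 samples of untreated RH30 cells (replicates 1 to 4) and 3 samples of RH30 cells given 5 µM BV6 for 24 h (replicates 2 to 4). Untreated and BV6 samples with the same replicate number carry the same BC label in their titles, whose meaning is not given, while untreated replicate 1 stands without a treated counterpart. The question was whether the genes of these regulators respond to BV6.

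NF-κB dimers are held in the cytoplasm by IκB proteins until the IκB kinase (IKK) complex phosphorylates the inhibitor and marks it for degradation. Upstream of IKK, ubiquitin chains attached to receptor complexes serve as a platform, and the linear ubiquitin chain assembly complex (LUBAC) adds linear chains that the IKK subunit NEMO binds. Deubiquitinases such as A20, CYLD and OTULIN cut or edit these chains and limit the signal, and the gene of A20 is itself a well-known NF-κB target.

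Total counts ranged from 54070030 to 77220882 in the 7 samples. These totals exceed the number of reads per library given in the methods. Reads may thus have been counted repeatedly, for example as both mates of a pair, which is not stated. Levels are given as CPM, counts scaled to the normalized library size, and 3 counts, the smallest number taken as detected, correspond to 0.03895 to 0.05572 CPM. This floor covers counting error only, and would stand for fewer fragments if mates were counted separately. In bulk samples, fewer cells expressing a gene and less RNA per cell cannot be told apart. The p-values measure the spread between these samples.

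The libraries differed in how counts depended on the GC content of a gene, and 2 of them stood apart. Per 10 percentage points of GC, log2 CPM relative to the other libraries rose by 0.24 in untreated replicate 1 and fell by 0.33 in BV6 replicate 3, while the slopes of the other libraries lay between -0.04 and 0.07. Of the members, 5 have transcripts with a GC content over 55%, namely IKBKG, RNF31, RBCK1, SHARPIN and TNIP1.

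Markers of the cell line and of other cell types were also examined. Of the genes of alveolar RMS, DES lay between 451 and 865.3 CPM, MYOD1 between 157 and 474 CPM and MYOG between 78.76 and 226 CPM. CDK4 was the most abundant gene of the list, with 4219 to 5776 CPM. TFAP2B (at most 0.09956 CPM) was close to or under the floor, and CDH3 was low, with 0.05344 to 0.279 CPM. Markers of NK cells and other leukocytes summed to between 7.06 and 14.3 CPM, mostly NKG7 (5.29 to 11.1 CPM), whereas PTPRC did not exceed 0.801 CPM and KLRF1 had no count in 3 libraries. Markers of epithelial and endothelial cells summed to between 27.4 and 69.9 CPM, nearly all of it PECAM1, while EPCAM did not exceed 0.143 CPM.

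Of the 10 members, TNFAIP3 and CYLD rose with BV6 and no member fell. By edgeR's quasi-likelihood test, 2 members thus passed a Benjamini-Hochberg threshold of 0.05 over 23124 genes, as did 0.45% of all tested genes. The same 2 members were those whose BV6 and untreated samples did not overlap, a pattern found in 8.83% of the tested genes. The median log2 fold change was -0.02 over the members and -0.01 over all tested genes. An exact permutation test of 4 against 3, two-sided, cannot go below 0.0571 for a single value. None of the ratios of counts compared below could therefore pass 0.05 in that test.

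**Figure D1:**
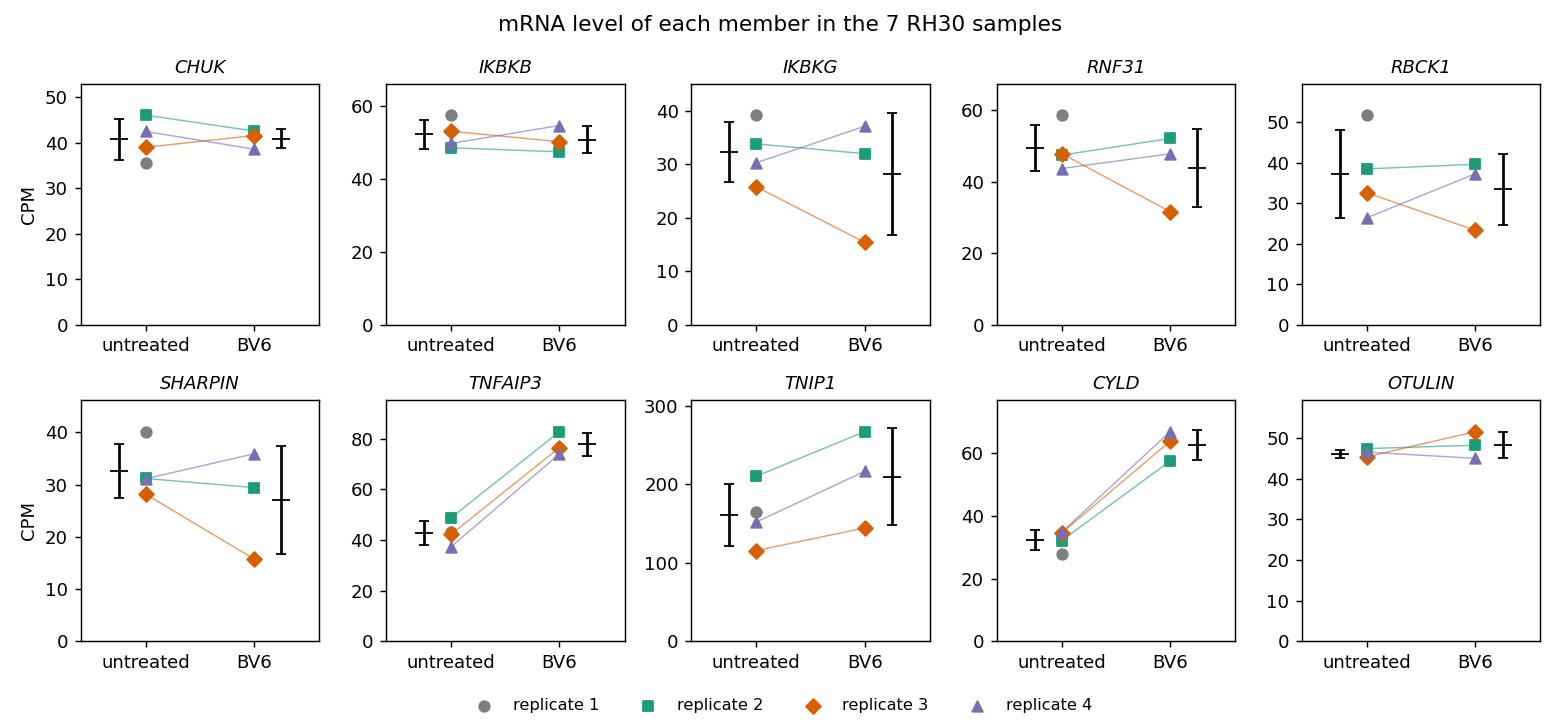
CPM (y axis, from 0) of each member in 4 untreated and 3 BV6 samples. Colors and symbols mark the replicate number, lines join samples with the same BC label, and black bars are the mean ± SD of each group; only TNFAIP3 and CYLD have every BV6 sample above every untreated one.

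The IKK complex consists of the catalytic subunits IKKα (CHUK) and IKKβ (IKBKB) and the regulatory subunit NEMO (IKBKG). CHUK had 35.6, 46.05, 39.0 and 42.5 CPM in untreated replicates 1 to 4 and 42.5, 41.6 and 38.6 CPM in BV6 replicates 2 to 4. The BV6 values lay inside the untreated range. Its log2 fold change was 0.0041 (standard error, SE, 0.119; edgeR adjusted p by Benjamini-Hochberg 0.994), with a 95% interval from -0.26 to 0.27. IKBKB had 57.6, 48.6, 53.1 and 49.8 CPM in untreated and 47.5, 50.2 and 54.7 CPM in BV6-treated cells. The groups overlapped here as well, and the log2 fold change of -0.04 had a 95% interval from -0.29 to 0.20 (edgeR adjusted p by Benjamini-Hochberg 0.938). For both kinases, these intervals reached from 0.821-fold to 1.21-fold. The sign of both turned with single samples left out, with log2 fold changes from -0.05 to 0.06 for CHUK and from -0.10 to 0.01 for IKBKB.

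IKBKG had 39.2, 33.8, 25.8 and 30.3 CPM in untreated cells and 32.0, 15.4 and 37.1 CPM in BV6 replicates 2, 3 and 4. BV6 replicate 3 was the lowest of the 7 samples, and the other BV6 samples lay within the untreated range. The log2 fold change was -0.20 (SE 0.270; edgeR adjusted p by Benjamini-Hochberg 0.864), and over the 7 leave-one-out fits it lay between -0.46 (without BV6 replicate 4) and 0.10 (without BV6 replicate 3). Its wide 95% interval, from -0.80 to 0.41, included a decrease to 0.573-fold. The counts of IKBKG are uncertain, since the near-identical copy IKBKGP1 can take part of its reads. IKBKGP1 counts came to between 38.4% and 45.2% of those of IKBKG in the 7 libraries, without separation of the groups, and adding them gave a log2 fold change of -0.18.

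A ratio of counts does not depend on library size but can depend on GC content, which was 50.3% for IKBKB and 36.3% for CHUK. A role of GC content in the ratios was not tested. The ratio of IKBKB to CHUK counts was 1.62, 1.06, 1.36 and 1.17 in untreated and 1.12, 1.21 and 1.42 in BV6-treated cells. These values overlapped, with a difference of -0.05 on the log2 scale (p = 0.857, exact two-sided permutation test; 0.857 after Benjamini-Hochberg adjustment over the 4 ratios computed), and with each sample left out it lay between -0.15 (without BV6 replicate 4) and 0.06 (without untreated replicate 1).

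LUBAC is formed by HOIP (RNF31), which carries the catalytic activity for linear chains, with HOIL-1 (RBCK1) and SHARPIN. RNF31 had 58.6, 47.4, 47.8 and 43.7 CPM in untreated and 52.1, 31.6 and 47.8 CPM in BV6-treated cells. RBCK1 had 51.8, 38.5, 32.6 and 26.4 CPM in untreated and 39.7, 23.3 and 37.4 CPM in BV6-treated cells. SHARPIN had 40.2, 31.2, 28.2 and 31.1 CPM in untreated and 29.4, 15.7 and 35.9 CPM in BV6-treated cells. In all 3 genes, BV6 replicate 3 was the lowest and untreated replicate 1 the highest of the 7 samples, and the remaining samples of both groups overlapped. The log2 fold changes of RNF31, RBCK1 and SHARPIN were -0.17, -0.16 and -0.27, and none passed (edgeR p of 0.822, 0.881 and 0.799 after Benjamini-Hochberg adjustment). Without BV6 replicate 3 they were 0.02, 0.05 and 0.0047. Without untreated replicate 1 they were -0.08, 0.04 and -0.16, so that the sign of RBCK1 turned without either library. The lowest values with 1 sample left out were -0.31 for RNF31 and -0.30 for RBCK1, both without BV6 replicate 2, and -0.54 for SHARPIN, without BV6 replicate 4.

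The lowest LUBAC and IKBKG values came from the library in which GC-rich genes were low in general. Whether GC content is the cause was not tested, and it cannot be told apart from a fall in that sample. Over the 5141 tested genes with a GC content over 55%, the median deviation of log2 CPM was -0.47 in BV6 replicate 3 and 0.33 in untreated replicate 1. Of the 5 members over 55%, 4 were lowest in BV6 replicate 3 and 4 were highest in untreated replicate 1, and none of the other 5 members was lowest in BV6 replicate 3, while IKBKB, with a GC content of 50.3%, was also highest in untreated replicate 1. With an offset for GC content in each library, the log2 fold changes of IKBKG, RNF31, RBCK1 and SHARPIN were -0.0254, -0.0361, 0.0293 and 0.0295. That of TNIP1, also over 55%, was 0.51 with the offset and 0.38 without it. Over all genes such a check is void, since 77.5% of the tested genes had a known GC content, under the 80% required. No call is taken from it. The offset was also fitted to these same libraries, so it removes their trend with GC content by construction. No conclusion is drawn from the values with it, here or for CYLD below. RNF31 has a further limit, as 51.5% of its exonic bases lie in another same-strand gene model, not found by symbol among those counted. It also shares 216 exonic bases with PSME2 on the opposite strand, where the handling of strand in the counting is not stated, and PSME2 itself was higher with BV6, with a mean of 159 CPM (SD 7.63, n = 3) against 110 CPM (SD 2.46, n = 4).

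**Figure D2:**
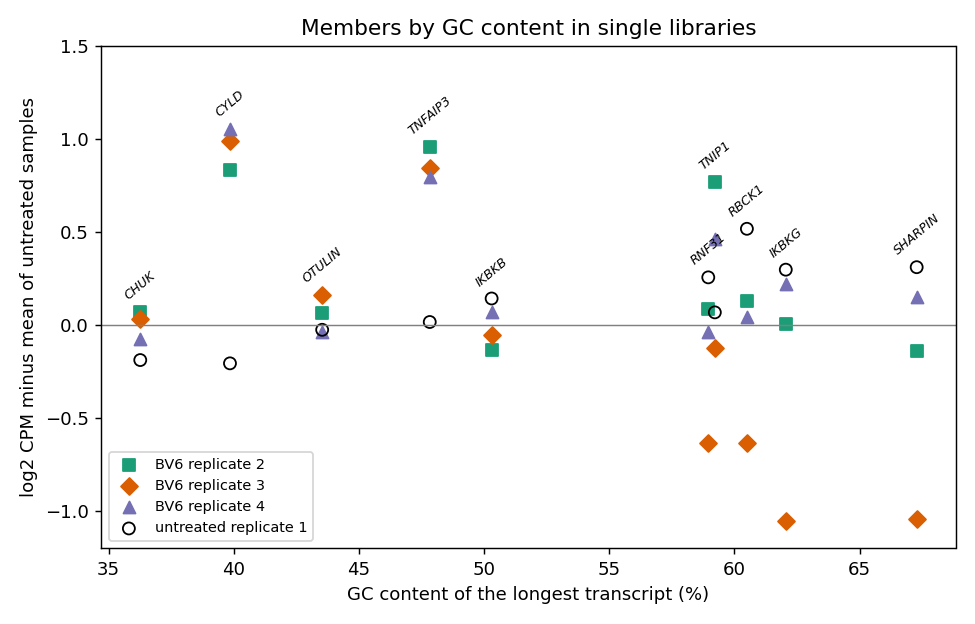
Log2 CPM of each member minus its mean over the untreated samples (y axis) against the GC content of its longest transcript in percent (x axis), for the 3 BV6 libraries and untreated replicate 1. In BV6 replicate 3, IKBKG, RNF31, RBCK1 and SHARPIN lie far below 0, whereas CYLD and TNFAIP3 lie near the other BV6 libraries.

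Between the accessory subunits, the ratio of RBCK1 to SHARPIN counts was 1.29, 1.24, 1.16 and 0.848 in untreated and 1.35, 1.48 and 1.04 in BV6-treated cells. Although each BV6 value was above that of the untreated sample with the same label, the groups overlapped. The difference was 0.19 on the log2 scale (p = 0.457, exact two-sided permutation test; 0.762 after Benjamini-Hochberg adjustment over the 4 ratios). It was 0.06 without untreated replicate 4, 0.08 without BV6 replicate 3 and 0.34 without BV6 replicate 4.

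A20 (TNFAIP3) is a ubiquitin-editing enzyme that restrains NF-κB signaling, and ABIN1 (TNIP1) is a ubiquitin-binding partner of it. TNFAIP3 had 43.1, 48.7, 42.2 and 37.3 CPM in untreated replicates 1 to 4 and 82.8, 76.5 and 74.0 CPM in BV6 replicates 2 to 4. Every BV6 sample was well above every untreated one. Neither library that stood apart in GC content was extreme for TNFAIP3, whose GC content was 47.8%, and a role of GC content was not tested. TNFAIP3 rose with a log2 fold change of 0.86 (SE 0.116; edgeR adjusted p by Benjamini-Hochberg 0.0145), or 1.82-fold with a 95% interval from 1.52 to 2.17. The call was lost in 4 of 7 leave-one-out fits, with adjusted p of 0.05806 without BV6 replicate 2 and 0.06059, 0.07747 and 0.05358 without untreated replicates 1, 3 and 4 (edgeR, Benjamini-Hochberg). Over the 7 fits the log2 fold change lay between 0.80 and 0.92.

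TNIP1 had 165, 210, 116 and 152 CPM in untreated and 267, 144 and 217 CPM in BV6-treated cells. The groups overlapped, since BV6 replicate 3 lay below 3 of the untreated samples, yet each BV6 sample was above the untreated sample with the same label. These differences were 0.34, 0.32 and 0.51 on the log2 scale for replicates 2, 3 and 4. The log2 fold change of 0.38 (SE 0.231) did not pass in the fit of condition only. Its adjusted p was 0.714 (edgeR, Benjamini-Hochberg), and its 95% interval ran from -0.14 to 0.90. Without BV6 replicate 3, the other BV6 samples lay above every untreated one, and the log2 fold change was 0.59 (edgeR adjusted p by Benjamini-Hochberg 0.493). It was 0.17 without BV6 replicate 2 and 0.25 without untreated replicate 3 (edgeR p of 0.828 and 0.825 after Benjamini-Hochberg adjustment). With a replicate block and all 7 samples, the log2 fold change was 0.39, with a 95% interval from 0.20 to 0.59. Its adjusted p of 0.0995 did not pass either (edgeR, Benjamini-Hochberg). TNIP1 spread more widely between untreated samples, at 161 ± 39.1 CPM (SD, n = 4), than TNFAIP3, at 42.8 ± 4.69 CPM.

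The ratio of TNIP1 to TNFAIP3 counts was 3.82, 4.32, 2.74 and 4.07 in untreated and 3.23, 1.89 and 2.93 in BV6-treated cells. It was lower in each BV6 sample than in the untreated sample with the same label, but the groups overlapped through untreated replicate 3. The GC content was 59.2% for TNIP1 and 47.8% for TNFAIP3. The lowest ratio came from BV6 replicate 3, the library in which GC-rich genes were low. A role of GC content was not tested. The difference of -0.50 on the log2 scale had p = 0.171 (exact two-sided permutation test; 0.686 after Benjamini-Hochberg adjustment over the 4 ratios), and with each sample left out it lay between -0.65 (without BV6 replicate 2) and -0.26 (without BV6 replicate 3).

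CYLD and OTULIN are deubiquitinases, of which CYLD cuts linear and K63-linked chains and OTULIN linear chains. CYLD had 28.0, 32.2, 34.6 and 34.8 CPM in untreated replicates 1 to 4 and 57.6, 63.9 and 67.0 CPM in BV6 replicates 2 to 4. The groups were far apart, with the lowest BV6 sample well above the highest untreated one. Untreated replicate 1, a library that stood apart in GC content, had the lowest of the 7 values. With an offset for GC content, the log2 fold change of CYLD was 0.89, against 0.96 without it. CYLD rose with a log2 fold change of 0.96 (SE 0.118; edgeR adjusted p by Benjamini-Hochberg 0.0109), or 1.94-fold with a 95% interval from 1.62 to 2.33. CYLD passed in each of the 7 leave-one-out fits, with adjusted p between 0.0196 and 0.0466 (edgeR, Benjamini-Hochberg). OTULIN had 45.4, 47.4, 45.4 and 46.5 CPM in untreated and 48.2, 51.6 and 45 CPM in BV6-treated cells. Its 7 values spanned a narrower range than those of any other member, and the log2 fold change of 0.06 had a 95% interval from -0.16 to 0.29 (edgeR adjusted p by Benjamini-Hochberg 0.881), with 0.02 to 0.11 in the leave-one-out fits. TNFAIP3 and CYLD moved by similar amounts. The ratio of TNFAIP3 to CYLD counts was 1.54, 1.51, 1.22 and 1.07 in untreated and 1.44, 1.20 and 1.11 in BV6-treated cells, a difference of -0.09 on the log2 scale (p = 0.571, exact two-sided permutation test; 0.762 after Benjamini-Hochberg adjustment over the 4 ratios). This difference lay between -0.20 (without BV6 replicate 2) and -0.01 (without BV6 replicate 4) with each sample left out.

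**Figure D3:**
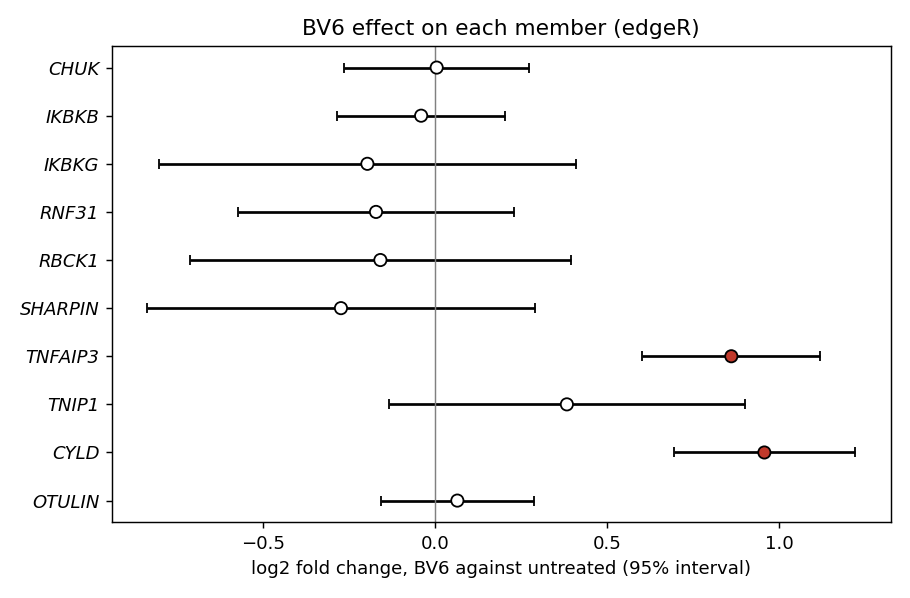
Log2 fold change of each member between BV6-treated and untreated cells (x axis), with 95% intervals from edgeR's fit of condition only. Filled points have an adjusted p below 0.05; TNFAIP3 (0.86) and CYLD (0.96) are filled, and the intervals of the other members include 0.

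Promoter sequences of RefSeq (GRCh38.p14), 250 bases before to 50 bases after a transcription start, were searched on both strands for the κB consensus, the DNA motif bound by NF-κB. The table held 8 of the members, with 15 windows, and of all 35116 windows in it 5.91% contained a match. Among the members, TNFAIP3, TNIP1 and CYLD had a match, in 4 windows, and CHUK, IKBKG, RNF31, RBCK1 and OTULIN had none. The 250 upstream bases of these 3 genes are shown because the members that rose are among them; capitals mark the matches. They lie at chr6:137867009-137867258 (plus strand) for TNFAIP3, chr5:151081035-151081284 (minus strand) for TNIP1 and chr16:50741836-50742085 (plus strand) for CYLD.
TNFAIP3: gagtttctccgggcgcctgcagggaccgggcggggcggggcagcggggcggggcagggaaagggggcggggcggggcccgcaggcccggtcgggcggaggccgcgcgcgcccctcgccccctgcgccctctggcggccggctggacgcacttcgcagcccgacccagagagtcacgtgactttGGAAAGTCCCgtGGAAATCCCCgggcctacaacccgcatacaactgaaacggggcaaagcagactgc
TNIP1: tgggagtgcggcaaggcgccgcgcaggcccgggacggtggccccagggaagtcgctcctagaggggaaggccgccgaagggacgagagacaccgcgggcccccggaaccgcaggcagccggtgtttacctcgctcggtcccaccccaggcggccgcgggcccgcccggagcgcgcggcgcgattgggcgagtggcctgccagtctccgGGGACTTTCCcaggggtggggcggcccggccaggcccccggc
CYLD: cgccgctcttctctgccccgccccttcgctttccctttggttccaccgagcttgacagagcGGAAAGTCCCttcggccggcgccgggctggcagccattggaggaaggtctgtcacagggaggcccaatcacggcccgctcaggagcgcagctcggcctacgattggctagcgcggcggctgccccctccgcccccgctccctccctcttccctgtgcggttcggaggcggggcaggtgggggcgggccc
The TNFAIP3 window held 2 matches, which began 67 and 55 bases before the start and read toward the other strand. In TNIP1 the match began 42 bases and in CYLD 189 bases before the start, and the sequence of the CYLD match was the same as that of the first TNFAIP3 match (GGAAAGTCCC). A further CYLD window, of a later start, held a match (GGGGCTTCCC) that began at it. These matches describe the sequence, and binding was not measured.

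Levels of different members were compared per kilobase of exonic sequence. In untreated cells TNIP1 was the highest, with 27.7 ± 6.76 CPM per kilobase (SD, n = 4), followed by SHARPIN (11.7 ± 1.86), and each was separate from the next gene in all samples. RNF31 (7.36 ± 0.959), TNFAIP3 (6.65 ± 0.729), IKBKG (5.94 ± 1.04), CHUK (5.91 ± 0.650), OTULIN (5.28 ± 0.113), IKBKB (4.73 ± 0.364), RBCK1 (3.47 ± 1.01) and CYLD (2.50 ± 0.245) followed, and each of these overlapped with its neighbor. With BV6, TNFAIP3 had 12.1 ± 0.705 CPM per kilobase (SD, n = 3) and CYLD 4.85 ± 0.370. SHARPIN (9.71 ± 3.70) overlapped with TNFAIP3, and IKBKB (4.597 ± 0.330) with CYLD. The order of levels depended on the length used, and with the length of the longest transcript TNFAIP3 ranked 8 in place of 4 among the members in untreated cells.

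The genes whose log2 CPM over the 7 samples was most like that of TNFAIP3 among 17059 genes were ITGAM, LINC00839, DTX4, UNC13A and C5orf56, with Pearson's r of 0.990, 0.987, 0.986, 0.985 and 0.985. For TNIP1 they were TRAF3 (0.995), ABCC1 (0.985), CAVIN1 (0.983), RNU1-125P (0.983) and TAP2 (0.981). These values describe 7 libraries in 2 groups, which differ in depth and in their dependence on GC content.

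Of 60 other genes of the pathway in 6 lists, 59 were tested, and 4 rose while none fell with BV6 (edgeR, Benjamini-Hochberg), against 0.45% of all tested genes. TNIP3, with at most 10 counts in a sample, was not tested. The median log2 fold change of the lists was 0.07. Among 11 genes of the TNFR1 complex and TAK1 module, the IAP genes BIRC2 (log2 fold change 1.54, adjusted p = 0.0269) and BIRC3 (4.86, adjusted p = 0.00341, edgeR, Benjamini-Hochberg) rose. Among 11 NF-κB subunits and IκB proteins, NFKB2 (1.67, adjusted p = 0.0110) and NFKBIA (2.17, adjusted p = 0.0116, edgeR, Benjamini-Hochberg) rose. BIRC2 lost its call without untreated replicate 1, 2, 3 or 4 (adjusted p of 0.0892, 0.0558, 0.0993 and 0.101), and NFKB2 (0.0536) and NFKBIA (0.0579) without untreated replicate 4 (edgeR, Benjamini-Hochberg). NFKBIE (log2 fold change 1.12, adjusted p = 0.127), RELB (0.90, 0.556) and NFKB1 (0.60, 0.288) did not pass in the fit of condition only (edgeR, Benjamini-Hochberg). NFKBIE passed by the DESeq2 Wald test (adjusted p = 0.00362) and, by edgeR with Benjamini-Hochberg, without a filter on low counts (0.0131) and without BV6 replicate 3 (0.0405). The calls of NFKBIE, RELB, NFKB1 and MAP3K14 depended on the design of the fit, as described with the processing alternatives. With a replicate block they passed, at adjusted p of 0.00832, 0.0322, 0.0454 and 0.0163 in that order (edgeR, Benjamini-Hochberg). The pairing behind this block was not taken as established. In the 8 IKK-related and IKK-activating kinases none passed in the edgeR fit of condition only. In that fit 2 of them had an unadjusted p below 0.05, against 1939 of all 23124 tested genes. MAP3K14, the gene of NIK, had means of 38.3 CPM (SD 11.3, n = 4) without and 68.2 CPM (SD 18.1, n = 3) with BV6 (log2 fold change 0.83; edgeR adjusted p by Benjamini-Hochberg 0.307), and MAP3K8 had a log2 fold change of 0.53. For MAP3K14 the BV6 sample lay above the untreated sample with the same label by 0.68, 0.87 and 1.147 on the log2 scale in replicates 2, 3 and 4.

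The other lists held 4 tested partners of A20 and ABIN, 14 other deubiquitinases and adaptors, and 11 genes of ubiquitin supply and E2 enzymes. None of these genes passed in the edgeR fit of condition only. In list order, 1, 1 and 0 of them had an unadjusted p below 0.05, against 1939 of all 23124 tested genes. By the DESeq2 Wald test, 0 passed in each of these lists and among the 8 kinases. TNIP2 passed with a GC offset (adjusted p = 0.0294) and with a GC offset and replicate block (0.00152, edgeR, Benjamini-Hochberg). USP18 passed with the GC offset and block (edgeR adjusted p by Benjamini-Hochberg 0.0186). Nothing is read from calls of fits with a GC offset. TNIP2 (log2 fold change 0.45) and ITCH (0.16), OTULINL (-0.35) and USP18 (0.45), and RPS27A (0.19) were among the genes with the highest absolute log2 fold changes of their lists. Matches to the κB consensus were found in 3 of the 4 pathway genes that rose and in 11 of 47 others in the promoter table, where 7.09% of all genes had a match in any of their windows.

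**Figure D4:**
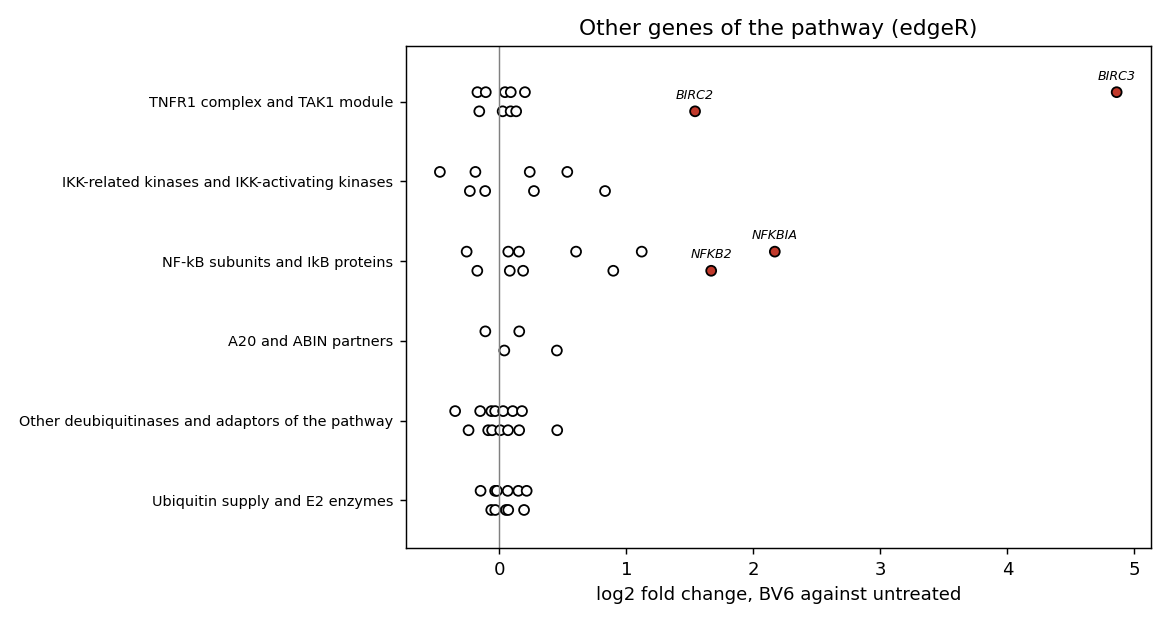
Log2 fold change between BV6-treated and untreated cells (x axis) of 59 tested pathway genes, by list (rows; the vertical offset within a row has no meaning). Filled points have an adjusted p below 0.05 (edgeR, fit of condition only) and are BIRC2, BIRC3, NFKB2 and NFKBIA.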

How the data were processed

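The authors deposited raw counts per gene, made per the paper's methods with STAR (version 2.6.1d in the submitters' processing notes) on GRCh38. The libraries were stranded, poly(A)-selected and paired-end, and counting used a union of each gene's isoforms. Whether the counting used strand, and how it treated shared reads and read mates, is not stated. From these counts, edgeR 4.0.16 in R 4.3.3 (filterByExpr with a minimum count of 10, TMM, glmQLFit and glmQLFTest, condition only) gave log2 fold changes and two-sided p-values, adjusted by Benjamini-Hochberg over 23124 genes. Standard errors were taken as the absolute log2 fold change over the root of F. Alternatives used DESeq2 1.42.0 and limma 3.58.1. Ratios of counts were compared by an exact permutation test of log2 ratios, with the two-sided p as double the smaller tail (Python 3.11.15, scipy 1.17.1). Gene coordinates, lengths and GC content came from GENCODE, with 37193 of 57189 genes matched, and promoters from RefSeq.

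The genes named are the 10 members. From each pathway list come the genes called in the fit of condition only or with a replicate block and the 2 with the highest absolute log2 fold change. Outside the lists, the markers and the 5 genes most correlated with TNFAIP3 and with TNIP1 (mean CPM of at least 1) are named. PSME2 and IKBKGP1 were named after their values were seen. Some genes that these rules take are not reported here. The members and lists were chosen with earlier results of these data known.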

Additional observations from a re-analysis of the deposited data

How the results depend on the processing

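Of 162 values of member effects under other settings, 127 kept their direction and side of the threshold, 4 lost and 2 gained a call, and 29 turned in sign without a call in either. The samples share a replicate number through their titles, but the pairing was not taken as established. Deviations from the group means correlated by 0.462, 0.438 and 0.0847 for replicates 2, 3 and 4, and 4 of 6 samples correlated best with their own number. A second check, added after this one and after the block fits had been seen, left out untreated replicate 1 and gave 0.515, 0.322 and 0.197, with 6 of 6. With the replicate block, 218 genes (0.943%), 2 members and 8 pathway genes were called, where NFKBIE, RELB, NFKB1 and MAP3K14 joined the 4 others, while TNIP1 had an adjusted p of 0.0995 (edgeR, Benjamini-Hochberg). Fits with a GC offset covered 17932 genes, 77.5% of those tested, which makes them void as a check over all genes, so their calls are listed and nothing is read from them. With a GC offset and the replicate block, 1191 genes (6.64%), 3 members and 13 pathway genes were called. TNIP1 was the third member, at a log2 fold change of 0.49 and an adjusted p of 0.00638, against 0.00638 to 0.999 over all its settings (edgeR, Benjamini-Hochberg), and the cause was not tested. Without both samples of replicate 3, a setting chosen after seeing the data as was adding IKBKGP1, this fit called 822 genes, 3 members and 11 pathway genes, and TNIP1 kept its call at a log2 fold change of 0.35 (edgeR adjusted p by Benjamini-Hochberg 0.0114). The number of genes called was 408 with the DESeq2 Wald test, 242 without a filter and 220 with the GC offset alone. Leaving out each sample gave 38 to 89 genes, 1 to 2 members and 1 to 5 pathway genes. The log2 fold change of CHUK turned to -0.0118 with DESeq2, -0.0092 with RLE factors, -0.0040 without a filter, -0.0536 with the replicate block, -0.0863 with the GC offset, -0.0925 with both and -0.122 with both but without replicate 3. IKBKB had 0.0072 with the replicate block, 0.0070 with both and 0.0191 with both but without replicate 3. RBCK1 had 0.0203 with the block, 0.0293 with the GC offset, 0.137 with both and 0.189 without replicate 3, where IKBKG had 0.0250, RNF31 0.0530 and OTULIN -0.0071. SHARPIN had 0.0295 with the GC offset. Leaving out each sample gave ranges of -0.052 to 0.0643 for CHUK, -0.0973 to 0.0129 for IKBKB, -0.455 to 0.103 for IKBKG, -0.310 to 0.0212 for RNF31, -0.297 to 0.0492 for RBCK1, -0.540 to 0.0047 for SHARPIN, 0.80 to 0.92 for TNFAIP3, 0.17 to 0.59 for TNIP1, 0.90 to 1.02 for CYLD and 0.02 to 0.11 for OTULIN. The IKBKB to CHUK ratio turned to 0.0608 as the mean of paired differences and lay between -0.146 and 0.0608 with each sample left out, against 0.06 to 0.34 for RBCK1 to SHARPIN, -0.20 to -0.01 for TNFAIP3 to CYLD and -0.65 to -0.26 for TNIP1 to TNFAIP3. With the length of the longest transcript, 4 of 9 neighbors in the order of levels were separate, in place of 2. The member with the fewest counts in a library was IKBKG, with 943 in BV6 replicate 3.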
